A study of Homo sapiens with 9 samples.

Results

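Mucin genes were examined in OVCA433, an established human line of ovarian serous adenocarcinoma, as a fixed list of 9 genes: MUC1, MUC4, MUC13, MUC15, MUC16, MUC20, MUC5B, MUC12 and MUC3A. They were taken by symbol from a table of 58676 genes, and all 9 were found. The list includes MUC16, which codes for the ovarian cancer antigen CA125. Messenger RNA was sequenced in 9 libraries, with replicates A, B and C in each of 3 groups. The control group was wild type for MPZL3 and carried the control shRNA vector, and the other groups carried shRNA #1 (hairpin 1) or shRNA #3 (hairpin 3) against MPZL3, a predicted cell adhesion molecule. The hairpins were delivered by virus. The study's text is not uniform on the control of OVCA433, naming an empty vector and elsewhere a scramble sequence, so it is uncertain whether control cells made any hairpin. The study describes 3 biological replicates per condition in 1 cell line.

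Mucins are large glycoproteins whose serine- and threonine-rich repeats are densely covered with O-linked sugars. Membrane-bound mucins span the plasma membrane of epithelial cells with a long extracellular domain and a short cytoplasmic tail, whereas secreted mucins form gels. In the ovary and the peritoneum, MUC16 is known as the protein shed into serum as CA125 and as a ligand of mesothelin, and MUC1 and MUC4 are known for signaling through receptor tyrosine kinases.

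MPZL3 was checked first. Its counts were 322, 440 and 440 in control libraries A, B and C, 40, 39 and 42 with hairpin 1, and 33, 18 and 39 with hairpin 3. All 6 knockdown libraries lay below all controls, and the level fell to 9.66% of control with hairpin 1 and 8.07% with hairpin 3. Library totals ranged from 16850854 to 23890191 counts, so that 3 counts in a library correspond to between 0.1286 and 0.1765 CPM, the counts scaled to a common library size. Of markers of the serous lineage, 5 of 6 reached 10 counts in a library. In control, WFDC2 averaged 105 CPM, PAX8 97.0, MSLN 68.4, SOX17 14.3 and FOLR1 0.39, and WT1 was at 0 in all libraries. Leukocyte markers summed to at most 1.35 CPM in any library. Of 4 markers of intestinal and goblet cells, none reached 10 counts in a library. CDX2 and TFF3 were at 0 in all libraries, SPDEF held 1 to 9 counts per library and MUC2 at most 2. The 4 mesothelial markers summed to 55.1 to 76.2 CPM in control, 10.7 to 32.1 with hairpin 1 and 20.1 to 37.1 with hairpin 3. The 3 endothelial markers summed to 0.398 to 0.621 CPM in control, 1.5 to 4.07 with hairpin 1 and 3.3 to 5.85 with hairpin 3.

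MUC16 transcript was present in control cells and had no count in any knockdown library. MUC16 (ENSG00000181143) codes for the largest membrane mucin. In control replicates A, B and C there were 69, 42 and 86 counts, or 3.34, 2.09 and 4.11 CPM. All 6 knockdown libraries held 0, so the groups did not overlap. The mean over the control libraries was 3.18 ± 1.02 CPM (SD, n = 3). Set against the floor of 3 counts in each knockdown library, MUC16 was at least 21.19-fold lower with knockdown, at least 22.64-fold with hairpin 1 and at least 19.91-fold with hairpin 3. These bounds set the control mean against the floor and do not cover the spread between libraries. PCR copies of reads are also not independent molecules. The difference passed the test of edgeR with Benjamini-Hochberg adjustment (adjusted p = 4.45e-05 for the pooled arm, 2.23e-05 for hairpin 1 and 3.11e-05 for hairpin 3). In bulk RNA, fewer cells that express a gene and less RNA per cell cannot be told apart.

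MUC4 and MUC20, which lie next to each other on chromosome 3, were also lost almost completely. MUC4 (ENSG00000145113), a membrane mucin that binds the receptor ERBB2, held 1503, 1720 and 1856 counts in the control libraries. It held 4, 0 and 0 counts with hairpin 1 and 0, 1 and 2 with hairpin 3. The 7 counts of the 6 knockdown libraries stood against 5079 in control, a level 1427-fold higher in control (95% counting interval 692 to 3550; adjusted p = 5.47e-10). MUC20 (ENSG00000176945), a membrane mucin known to bind the receptor MET, held 505, 950 and 1035 counts in control and 0 in all 6 knockdown libraries. It was at least 269.1-fold lower with knockdown (adjusted p = 2.81e-06). Control library A held the fewest MUC20 counts, yet it lay far above every knockdown library.

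MUC1 fell less and stayed detectable in every library. MUC1 (ENSG00000185499) codes for a membrane mucin with a signaling tail that binds beta-catenin and SRC family kinases. Its counts were 97, 159 and 188 in control, 63, 54 and 77 with hairpin 1, and 40, 35 and 35 with hairpin 3. On the CPM scale the means were 7.20 ± 2.23 in control, 3.00 ± 0.281 with hairpin 1 and 1.96 ± 0.373 with hairpin 3 (SD, n = 3 each). All 6 knockdown libraries lay below the lowest control library. The log2 fold change was −1.53 (SE 0.253, adjusted p = 0.000586 by edgeR) for the pooled arm, −1.26 (SE 0.244, adjusted p = 0.00112) for hairpin 1 and −1.88 (SE 0.259, adjusted p = 7.65e-05) for hairpin 3. The hairpins themselves differed by −0.62 (SE 0.271), which did not pass the test (adjusted p = 0.171).

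MUC3A fell from a low level. MUC3A (ENSG00000169894), a membrane mucin best known from the intestine, held 16, 33 and 14 counts in control, 3, 4 and 4 with hairpin 1, and 7, 11 and 5 with hairpin 3. The groups did not overlap, although hairpin 3 library B came within 3 counts of control library C. The log2 fold change was −1.82 (SE 0.471, adjusted p = 0.0107 by edgeR) for the pooled arm and −2.54 (SE 0.535, adjusted p = 0.00202) for hairpin 1. With hairpin 3 it was −1.32 (SE 0.476, adjusted p = 0.047), a call that was lost in 8 of 15 alternative analyses. Without control library B the pooled value was −1.32 (adjusted p = 0.103) and the hairpin 3 value was −0.82 (adjusted p = 0.268).

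MUC15 moved the other way, and mainly with 1 hairpin. MUC15 (ENSG00000169550) codes for a small membrane mucin first described in milk. It held 0, 0 and 1 counts in control, 0, 5 and 3 with hairpin 1, and 20, 64 and 79 with hairpin 3. Hairpin 3 libraries lay above all others, whereas hairpin 1 library A had no count and overlapped control. Against control the ratio was 176.5 for hairpin 3 (95% counting interval 31.2 to 7010) and 7.66 for hairpin 1 (1.03 to 340). Both ratios rest on a single control count. MUC15 was called higher with hairpin 3 (adjusted p = 4.37e-05 by edgeR) and not with hairpin 1 (adjusted p = 0.194). The direct comparison put hairpin 3 above hairpin 1 by 4.42 on the log2 scale (SE 0.661, adjusted p = 0.000762), or 23.04-fold by counts (11.4 to 54.3). In the pooled arm the log2 fold change was 6.02 (SE 1.94, adjusted p = 0.032), a call lost in 4 of 16 alternative analyses. It was lost without control library A, B or C (adjusted p = 0.0987, 0.109 and 0.0989) and with a block on the replicate letters, given at the end.

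MUC13, MUC5B and MUC12 never exceeded 5 counts in a library and were not tested. MUC13, a membrane mucin of the gut, held 0 to 2 counts in every group. MUC5B, a secreted gel-forming mucin, held 3, 0 and 0 counts in control and at most 2 in a knockdown library. MUC12, a membrane mucin whose gene lies beside MUC3A, held 0, 1 and 0 counts in control, 3, 3 and 4 with hairpin 1, and 3, 5 and 3 with hairpin 3. Its 21 knockdown counts against 1 control count gave a ratio of 10.67 (95% counting interval 1.72 to 441), and all 6 knockdown libraries lay above all controls. At this depth the levels of MUC13 and MUC5B could not be told apart between groups.

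**Figure D1:**
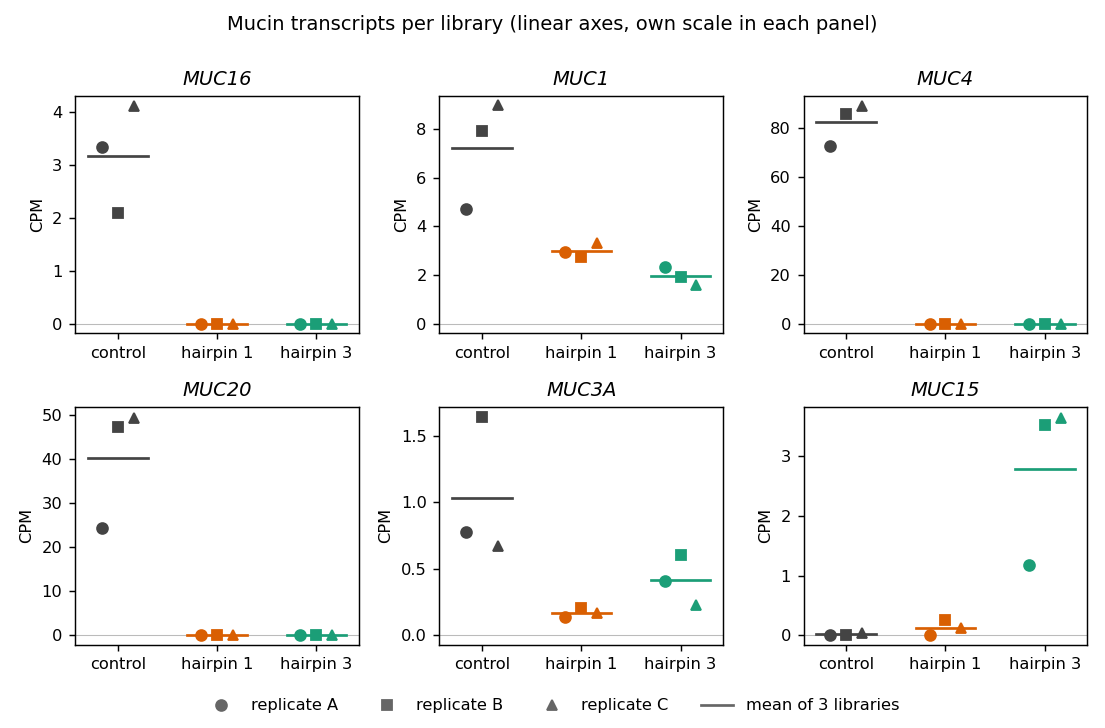
Normalized counts (CPM, linear axis with its own scale in each panel) of the 6 tested mucin genes in each of the 9 libraries; symbols mark replicates A, B and C and lines the mean of 3 libraries. MUC16, MUC4 and MUC20 are at or near 0 in all 6 knockdown libraries, MUC1 and MUC3A are lower but detected, and MUC15 is highest in the 3 hairpin 3 libraries.

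Across the list, 6 of 9 genes passed the filter on low counts. A gene was called at an adjusted p under 0.05 with a log2 fold change of at least 1 in either direction. In the pooled comparison 5 mucins were called lower, where 7.4% of all 15975 tested genes were, and 1 was called higher, where 7.26% were. With hairpin 1, 5 were called lower (all genes, 8.55%) and 0 higher (all genes, 7.76%). With hairpin 3, 5 were called lower (all genes, 7.83%) and 1 higher (all genes, 7.46%). Between the hairpins 0 mucins were called lower in hairpin 3 (all genes, 1.72%) and 1 higher (all genes, 2.22%). MUC4, MUC16, MUC20 and MUC3A passed the filter through the control libraries and MUC15 through hairpin 3, so these numbers are given as a description of the list. All controls lay above all knockdown libraries for 5 of the 6 tested mucins (all tested genes, 17.6%) and below them for 0 (all tested genes, 15.5%).

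The summed markers of epithelial identity were lower in the same libraries as the mucins that fell. The summed level of 8 epithelial markers, all detected, was 11700 to 14700 CPM in control libraries, 5130 to 6630 in hairpin 1 libraries and 5070 to 5660 in hairpin 3 libraries. Among them CDH1, the adhesion molecule E-cadherin, fell from a control mean of 275 ± 5.48 CPM to means of 0.112 (hairpin 1) and 0.148 (hairpin 3). Most of the sum was KRT8, KRT7 and KRT18, at control means of 4816, 3430 and 2175 CPM. With knockdown these stood at 44.2%, 72.3% and 37.7% of control. EPCAM, KRT19, CLDN3 and CLDN4 stood at 1.79%, 7.07%, 4.75% and 1.18%. KRT7 was not called with either hairpin or in the pooled arm (−0.47, SE 0.193, adjusted p = 0.0847 by edgeR). The 6 serous markers summed to 265 to 303 CPM in control, 299 to 326 with hairpin 1 and 330 to 441 with hairpin 3. Of these, PAX8 was called higher in the pooled arm (1.07, adjusted p = 2.25e-05) and WFDC2 lower (−5.78, adjusted p = 3.13e-09). The summed level of 7 fibroblast markers, 1 of them at 0 throughout, was 18.6 to 22.1 CPM in control, 109 to 446 in the hairpin 1 libraries and 503 to 871 in the hairpin 3 libraries. Most of this sum was COL1A1, at means of 17.9 CPM in control, 312 for hairpin 1 and 641 for hairpin 3. The part of these shifts in the mucin levels was not tested.

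Compared per length of transcript, as CPM per kilobase of exon (RPKM), MUC20 was the most abundant mucin of control cells at 9.51 ± 3.26 (SD, n = 3), above MUC4 at 3.86 ± 0.396 and MUC1 at 1.53 ± 0.473. These 3 levels kept their order in each control library. MUC3A at 0.0904 ± 0.047 and MUC16 at 0.0726 ± 0.0233 followed and did not differ beyond their spread. MUC16 as counted thus made up 0.28% to 0.739% of the summed mucin level per length in control libraries. The rank of MUC20 and these shares are uncertain. MUC20 shares sequence with other genes, and the counted MUC16 model lacks first exons at starts upstream of it, as given below. With hairpin 1, MUC1 was highest at 0.635 ± 0.0596. MUC15 at 0.038 ± 0.0379 rested on 8 counts, with none in library A, so no order is given below MUC1. With hairpin 3, MUC15 at 0.827 ± 0.413 and MUC1 at 0.416 ± 0.0791 overlapped in their spread, and MUC1 was the higher of these only in library A.

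The 9 genes together summed to 15.1 ± 4.15 RPKM in control, 0.717 ± 0.0507 with hairpin 1 and 1.31 ± 0.34 with hairpin 3. In make-up, MUC20 took 55.8%, 65.3% and 65% of the summed level per length in control libraries A, B and C and MUC4 took 33.1%, 23.6% and 23.2%. With hairpin 1, MUC1 took 91.1%, 84.3% and 90.2%. With hairpin 3, MUC15 took 38.1%, 67.7% and 74.2%, so the mucin transcripts that were left differed between the hairpins.

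**Figure D2:**
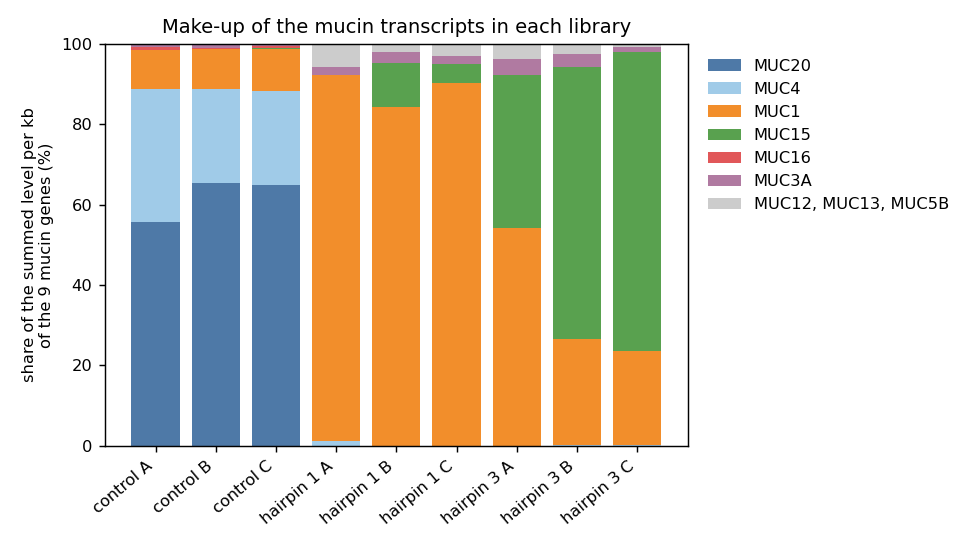
Share (%) of each gene in the summed level per kilobase of the 9 mucin genes, as stacked bars that reach 100% in each of the 9 libraries. MUC20 and MUC4 fill most of the bar in control, MUC1 takes 84.3% to 91.1% with hairpin 1, and MUC15 takes 38.1% to 74.2% with hairpin 3.

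Promoter sequences are shown for MUC1, MUC16 and MUC4, to set genes that moved together side by side. Windows from 250 bases before to 50 bases after a RefSeq transcript start (GRCh38.p14) were given for 6 of the 9 genes, in 8 windows. MUC20, MUC15 and MUC5B had none. In the sequences, written 5′ to 3′ on the strand of the gene, capitals mark CAGGTG or its reverse complement CACCTG, a form of the E-box. The motif was searched on both strands and its copies in these windows did not overlap.
MUC1, chr1:155192866-155193165, minus strand: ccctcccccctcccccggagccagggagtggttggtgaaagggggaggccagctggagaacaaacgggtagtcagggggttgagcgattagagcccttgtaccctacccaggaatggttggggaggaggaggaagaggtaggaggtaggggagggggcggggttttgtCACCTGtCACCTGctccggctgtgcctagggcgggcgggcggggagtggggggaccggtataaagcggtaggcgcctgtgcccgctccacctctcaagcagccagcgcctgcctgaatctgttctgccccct
MUC16, chr19:9065702-9066001, minus strand: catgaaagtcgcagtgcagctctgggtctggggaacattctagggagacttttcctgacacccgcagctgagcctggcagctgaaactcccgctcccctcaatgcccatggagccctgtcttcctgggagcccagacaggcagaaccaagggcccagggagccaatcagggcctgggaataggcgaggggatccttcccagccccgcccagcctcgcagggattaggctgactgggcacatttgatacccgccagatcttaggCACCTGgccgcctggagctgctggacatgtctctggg
MUC16, chr19:9010360-9010659, minus strand: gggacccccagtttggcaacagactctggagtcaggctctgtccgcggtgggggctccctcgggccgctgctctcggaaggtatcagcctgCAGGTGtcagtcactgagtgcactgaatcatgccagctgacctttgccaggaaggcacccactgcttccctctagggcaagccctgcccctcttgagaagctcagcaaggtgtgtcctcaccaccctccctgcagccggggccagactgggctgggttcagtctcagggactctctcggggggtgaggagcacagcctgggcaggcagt
MUC4, chr3:195811880-195812179, minus strand: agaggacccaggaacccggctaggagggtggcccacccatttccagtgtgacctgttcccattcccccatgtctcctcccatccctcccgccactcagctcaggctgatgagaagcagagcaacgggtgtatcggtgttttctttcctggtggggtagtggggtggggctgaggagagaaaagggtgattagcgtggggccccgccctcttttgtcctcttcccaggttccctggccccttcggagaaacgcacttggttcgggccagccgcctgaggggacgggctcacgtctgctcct

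The MUC1 window shown held 2 copies, which began 82 and 75 bases before the start, and a tataaa stretch 24 bases before it. In the other MUC1 window, which starts 6 bases away and overlaps it, the same letters lie 88, 81 and 30 bases before the start. Each MUC16 window held 1 copy, which began 13 bases after the start in the first and 159 bases before it in the second. No copy was in the windows of MUC4, MUC13, MUC3A and MUC12, so genes that fell were found with and without these letters. Of all 35116 RefSeq windows of this length, 20.6% held the motif at least once and 3.49% at least 2 times, and 7.33% held tataaa on the strand of the gene. The matches describe letters and not binding. Both MUC16 starts lie outside the gene model used for counting, 84.4 and 29.1 kb upstream of its edge, so first exons at those starts are not part of the values above.

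Neighboring genes were compared to see how far the changes reached along the chromosome. Within 100 kb of MUC4, on GRCh38 at chr3:195746765-195812277, 8 genes were tested, MUC20 among them, and 3 were called lower (all tested genes, 7.4%). These 3 were MUC20 itself and the noncoding AC124944.5 and TNK2-AS1. All of them passed the filter through the control libraries, so these numbers are given as a description. MUC20 lies at chr3:195720882-195741123, 5.64 kb from MUC4, on the opposite strand. LINC00969, a long noncoding RNA that overlaps MUC20, had 667, 688 and 735 counts in control, 640, 638 and 732 with hairpin 1, and 497, 536 and 711 with hairpin 3. Its log2 fold change was −0.14 (SE 0.0825, adjusted p = 0.24 by edgeR), so it was not called while MUC20 beside it had no count left. On the far side of MUC4, the noncoding AC124944.5 had 19, 41 and 35 counts in control and a single count in the 6 knockdown libraries. The kinase gene TNK2 had a log2 fold change of −0.24 (SE 0.111, adjusted p = 0.121), and its antisense transcript TNK2-AS1 one of −1.54 (SE 0.471, adjusted p = 0.0255). The libraries carried no strand, so reads of TNK2 and TNK2-AS1 cannot be told apart where these genes overlap.

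Around MUC1, at chr1:155185824-155192916, 15 genes were tested and 1 was called lower (all tested genes, 7.4%). It was the ephrin gene EFNA3, with a log2 fold change of −1.20 (SE 0.267, adjusted p = 0.00453 by edgeR). The nearest, TRIM46 at 0.853 kb, had 0.11 (SE 0.194, adjusted p = 0.71), and THBS3 at 2.67 kb had 0.95 (SE 0.297, adjusted p = 0.0283), under the fold threshold. Around MUC16, at chr19:8848844-8981342, only ZNF558 was tested, with −0.23 (SE 0.141, adjusted p = 0.24). Around MUC3A, at chr7:100949555-100968346, 5 genes were tested and 1 was called lower (all tested genes, 7.4%). It was SLC12A9, a member of the cation-chloride cotransporter family, with −1.11 (SE 0.0791, adjusted p = 6.79e-07). No neighbor of MUC15, at chr11:26559033-26572233, passed the filter.

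**Figure D3:**
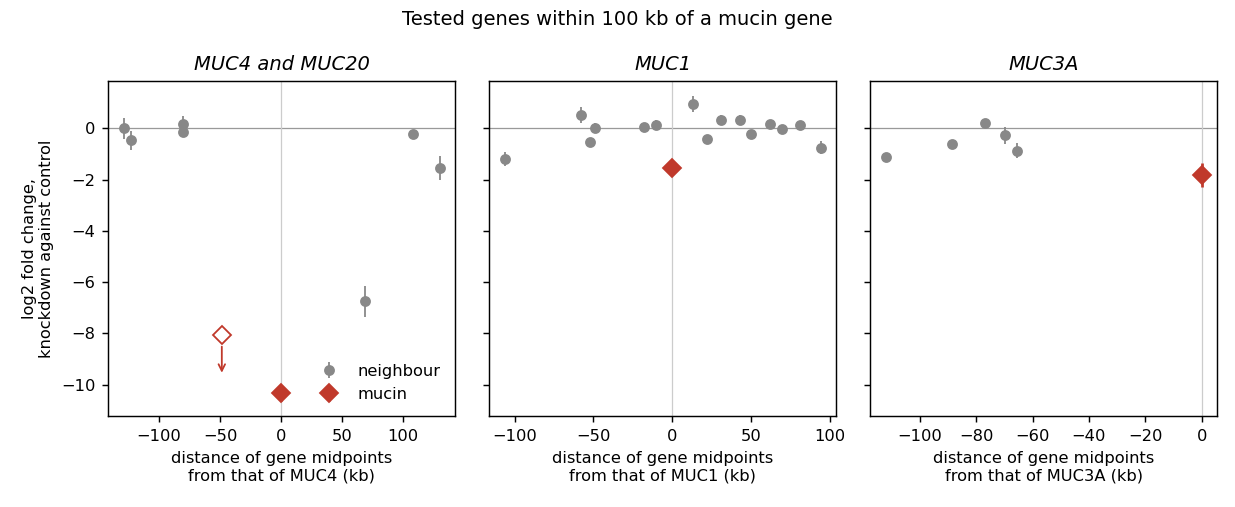
Log2 fold change of knockdown against control (bars, SE) of tested genes within 100 kb of MUC4 and MUC20, MUC1 and MUC3A, by the distance (kb) between gene midpoints. Gray points are neighbors and red diamonds mucins; the open diamond with an arrow is the bound of MUC20, at least 269.1-fold lower. Next to MUC4 the noncoding AC124944.5 is low, resting on 1 knockdown count, while most other neighbors lie near 0.

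Sequence shared with other genes limits MUC20 more than the other mucins. Of its 4249 exon bases, 42.8% lie in exons of LINC00969 on the same strand, and 54.1% of its distinct 50-base sequences also occur in other genes, among them LINC00969 and the pseudogene MUC20P1. How reads that fit several genes were treated is not given in the sources used here, so the level of MUC20 is uncertain. MUC20P1 held 215, 320 and 313 counts in control and 6 in all knockdown libraries together, a level 278.1-fold higher in control (95% counting interval 127 to 760), and 58.5% of its 50-base sequences are those of MUC20. Counts of the gene and the pseudogene can thus have been exchanged. MUC1, MUC4 and MUC16 shared no 50-base sequence with another gene.

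The remaining mucin symbols were mostly silent. MUC19, a gene of a gel-forming mucin annotated here as a processed transcript, held 42, 52 and 54 counts in control, 11, 4 and 11 with hairpin 1, and 9, 20 and 12 with hairpin 3. Its log2 fold change was −2.10 (SE 0.355, adjusted p = 0.00071 by edgeR), and the groups did not overlap. MUC5AC, MUC7 and MUCL1 had no count, and MUC2, MUC6, MUC17, MUC21 and MUC22 never exceeded 3 counts. In a list of 18 other mucin and mucin-like genes, 5 were tested, of which 1 was called lower, 0 higher and 4 neither (all tested genes, 7.4% lower and 7.26% higher). The median log2 fold change was −0.76. The median of all tested genes was 0.00454. Among the 4, the sialomucin PODXL2 had −1.93 with hairpin 3 (adjusted p = 5.05e-08) and −0.40 with hairpin 1 (adjusted p = 0.0142), and podocalyxin, PODXL, had 0.80 in the pooled arm (adjusted p = 0.00118), under the fold threshold.

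Enzymes that attach the first sugar of an O-glycan changed unevenly. Of 20 listed N-acetylgalactosaminyltransferase genes 13 were tested, 3 of them called lower, 1 higher and 9 neither (all tested genes, 7.4% lower and 7.26% higher). The median log2 fold change was −0.54. With replicate A or C of hairpin 1 left out, 2 were called higher. GALNT3 held 2507, 2250 and 1936 counts in control and 115 to 322 in knockdown libraries (log2 fold change −3.48, SE 0.226, adjusted p = 2.89e-07 by edgeR). GALNT5 fell to 58.9 CPM (hairpin 1) and 52.6 CPM (hairpin 3) from a control mean of 376 ± 25.8 CPM. GALNTL6, the call in the other direction, rose from 5 to 9 counts per control library to 14 to 45 in knockdown libraries (1.75, SE 0.401, adjusted p = 0.00541). GALNTL6 passed the filter through the knockdown libraries, so these calls are given as a description of the list. The broadly expressed GALNT2 had a value of 0.04 (adjusted p = 0.872).

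Among enzymes that extend or cap O-glycans, 18 of 25 were tested, and 4 were called lower, 3 higher and 11 neither (all tested genes, 7.4% lower and 7.26% higher), with a median of −0.07. The Lewis fucosyltransferase FUT3 held 99, 136 and 158 counts in control and 0 in all 6 knockdown libraries, at least 42.44-fold lower (adjusted p = 7.59e-06 by edgeR). FUT3 passed the filter through the control libraries, so these calls are given as a description of the list. ST6GALNAC5, a sialyltransferase best known from gangliosides, had a log2 fold change of −3.86 (SE 0.232), and FUT1, which makes the H antigen, had −2.54 (SE 0.211). B3GNT3, which extends core 1 O-glycans, fell from 248 to 294 counts per control library to 0 to 2 with hairpin 1 and 6 to 12 with hairpin 3. The sialyltransferases ST3GAL2, ST3GAL3 and ST6GALNAC3 made up the calls in the higher direction, between 1.04 and 1.10. C1GALT1, which builds core 1, had −0.46 and its chaperone C1GALT1C1 −0.21, neither of them called.

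All 19 listed binding and signaling partners of mucins were tested, and 5 were called lower, 0 higher and 14 neither (all tested genes, 7.4% lower and 7.26% higher), with a median of −0.38. The called genes were EZR, JUP, LYN, LGALS9 and PTPN6. Ezrin (EZR), which links membrane mucins to actin, was called lower, with 18837, 19021 and 20183 counts in control and 5970 to 10905 in knockdown libraries (log2 fold change −1.27, SE 0.156). Moesin (MSN) and radixin (RDX) of the same list did not follow it. MSN had 0.93 in the pooled arm (adjusted p = 7.21e-05 by edgeR) and was called higher with hairpin 1 (1.07). RDX had −0.07 (adjusted p = 0.664). Plakoglobin (JUP), a relative of beta-catenin at junctions, had a log2 fold change of −2.49 (SE 0.231, adjusted p = 5.97e-06 by edgeR), and the kinase LYN had −2.06 (SE 0.321, adjusted p = 0.000374). Mesothelin (MSLN), the ligand of MUC16, averaged 68.4 ± 14.3 CPM in control libraries, 85.9 ± 20.6 for hairpin 1 and 149 ± 29.7 for hairpin 3. It was called higher with hairpin 3 (log2 fold change 1.12, adjusted p = 0.000598) and not with hairpin 1 (0.33, adjusted p = 0.216). The receptors ERBB2 (−0.86), MET (−0.93) and EGFR (0.42) passed the test below the fold threshold.

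Of 20 genes of the secretory mucin program, which drives goblet-type cells, 6 were tested, 3 of them called lower, 1 higher and 2 neither (all tested genes, 7.4% lower and 7.26% higher), with a median of −1.14. AGR2, a disulfide isomerase needed for mucin folding, held 58, 82 and 57 counts in control and 5 in all knockdown libraries, a ratio of 77.51 (95% counting interval 32.7 to 241). AGR2 passed the filter through the control libraries, so these calls are given as a description of the list. The transcription factors KLF4 and FOXA1 had log2 fold changes of −2.92 (SE 0.232, adjusted p = 1.66e-06 by edgeR) and −1.43 (SE 0.157, adjusted p = 2.46e-05). CREB3L1, a transcription factor of the secretory pathway, had 1.37 (SE 0.371, adjusted p = 0.014). The list held 0 calls in this direction without control replicate A and without control replicate B. TFF1, TFF2, TFF3 and CLCA1 had a control mean of 0 CPM.

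**Figure D4:**
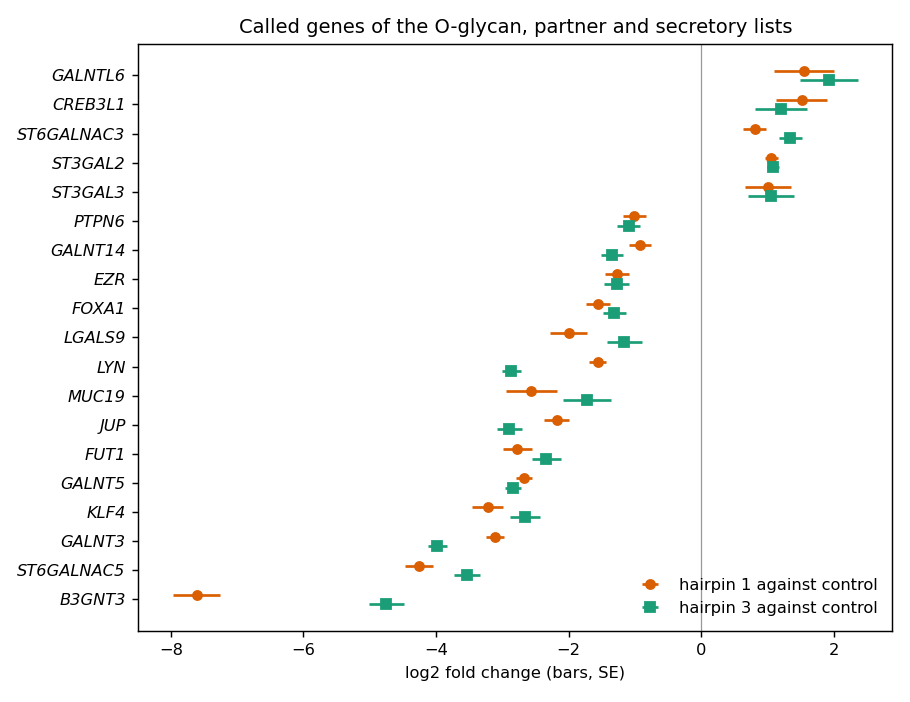
Log2 fold change of each hairpin against control (points, with SE as bars) for called genes of the O-glycan, partner, secretory and other mucin lists; FUT3 and AGR2, at 0 in at least 3 libraries, are left out. B3GNT3 and LYN are the genes in the plot whose hairpins differ by the direct test with a fold above the threshold.

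Genes with patterns closest to those of MUC16 and MUC1 were sought among 9495 protein-coding genes, by the root mean square difference of log2 CPM, centered on the control mean, over the 9 libraries. The closest to MUC16 was MROH6 (0.392), followed by TMEM40 (0.459), KIAA1211L (0.468), CXCL16 (0.472) and RBM47 (0.508). MROH6 averaged 91.5 ± 11.7 CPM in control libraries, against 2.48 (hairpin 1) and 3.80 (hairpin 3). The level of MUC16 with knockdown is set by the prior count of 2 in this measure. Its distances, and which genes rank closest to it, thus depend on that setting and on depth. The closest to MUC1 were LIPA (0.223), C1QTNF6 (0.234), CKB (0.25), BPGM (0.252) and PDLIM1 (0.261). LIPA, the lysosomal acid lipase, averaged 101 ± 16.9 CPM in control libraries, against 38.4 (hairpin 1) and 29.5 (hairpin 3).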

How the data were processed

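RNA of OVCA433 cells was measured in 9 libraries from poly(A)-selected, non-directional RNA. The deposited values are raw read counts per gene, with no normalization by the authors. The submitters' processing notes name HISAT2 2.0.5, featureCounts 1.5.0-p3 and the build hg38. All 58676 identifiers were found in GENCODE 29, and 95.2% of genes, the 9 mucins included, had the same position there, so coordinates are on GRCh38. Promoter sequences are from RefSeq (GRCh38.p14).

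Genes were filtered with filterByExpr (minimum count 10, minimum total 15), which left 15975 genes with 99.889% of counts. TMM factors and the quasi-likelihood test of edgeR 4.0.16 in R 4.3.3 were used, with Benjamini-Hochberg adjustment over all tested genes. Both hairpins (6 libraries) were compared with control as in the study, and a 3-group model gave each hairpin against control and the difference between hairpins. A standard error is the fold change divided by the root of its F statistic. CPM used the TMM factors, and RPKM divided CPM by the exon length in the table. Scripts were tested on simulated data. Alternatives were DESeq2 1.42.0 (its size factors, and separately its Wald test), scaling to library totals, no filter, no fold threshold, a block on the replicate letters, leaving out each library, and the pooled arm from the 3-group model.

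The mucins and lists were chosen with earlier results of these data known. Named genes were the 9 mucins, MPZL3, other MUC symbols with at least 10 counts in a library, up to 4 genes per list with the largest called change in the same direction with each hairpin, tested neighbors within 100 kb, and the 5 genes closest to MUC16 and to MUC1 with a mean of at least 10 CPM. Further genes named from the lists were chosen after their values were seen.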

Additional observations from a re-analysis of the deposited data

Results flagged for a closer look

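Hairpin 3 and hairpin 1 were compared directly for the 6 tested mucins and 61 tested list genes (edgeR, n = 3 libraries each). The hairpins differed by this test with a fold above the threshold for MUC15 and for 6 genes of the lists. Of all tested genes, 1.72% were called lower and 2.22% higher with hairpin 3 in this comparison. MUC15 was 4.42 higher on the log2 scale with hairpin 3 (adjusted p = 0.000762), and all 3 hairpin 3 libraries lay above all hairpin 1 libraries. B3GNT3 was 2.87 higher with hairpin 3 (adjusted p = 0.00511), where both hairpins were far below control. FOXA2 was 2.39 higher (adjusted p = 0.00398) and GALNT16 2.20 higher (adjusted p = 0.0068) with hairpin 3, both at low levels in every library. GALNT16 passed the filter through the hairpin 3 libraries. LYN had a difference of −1.30 (adjusted p = 8.13e-05), PODXL2 one of −1.52 (adjusted p = 5.84e-06) and GALNT12 one of −1.49 (adjusted p = 0.00998), each lower with hairpin 3.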

How the results depend on the processing

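The calls of MUC1, MUC4, MUC16 and MUC20 against control held for each hairpin and the pooled arm in every alternative run. The number of mucins called was 4 to 6 in the pooled arm, 5 with hairpin 1, 5 or 6 with hairpin 3 and 1 between the hairpins, of 6 tested, or of 9 without the filter. Of all tested genes, 8.9% to 33% were called in the pooled arm and 9.7% to 37.8% with hairpin 1. With hairpin 3 the share was 8.91% to 34.7%, and between the hairpins it was 2.54% to 11.6%. The lowest shares came without the filter and the highest with no fold threshold. With no fold threshold, 43 of 61 tested genes of the pathway lists were called in the pooled arm, against 33% of all tested genes. For MUC4, at 4 and 3 counts in the hairpin groups, the uncalled log2 difference of hairpin 3 against hairpin 1 turned from −0.22 to 3.25 without hairpin 1 replicate A and to 0.25 without hairpin 3 replicate A, and its range over all alternatives was −0.978 to 3.25. The 4 counts of hairpin 1 all lay in replicate A, and hairpin 3 replicate A held 0.

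The replicate letters were checked as a pairing. Correlations of deviations between same-letter libraries were 0.0373 to 0.361, with 6 of 9 over 0.1, and 15 of 18 best matches had their own letter, and the libraries with letter B were those under 0.1. Because the threshold of 0.1 was not passed by every pair, the main fits had no block on the letters. The best matches are a hint of pairing from the data, and this check does not exclude a pairing by letter. With the replicate block, 5 mucins were called in the pooled arm, 5 with hairpin 1, 6 with hairpin 3 and 1 between hairpins, and 21 genes of the lists. Of all tested genes, 14.4% were then called in the pooled arm, 16.7% with hairpin 1, 15.7% with hairpin 3 and 4.72% between hairpins. MUC15 in the pooled arm had 6.02 with the block (adjusted p = 0.0528 by edgeR). MUC13, MUC5B and MUC12, at 5 counts or fewer, were tested only without the filter and were not called there.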
